A study of Arabidopsis thaliana with 12 samples.

Results

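The UDP-glycosyltransferase (UGT) genes of Arabidopsis thaliana that lie outside glucosinolate synthesis were followed in roots grown on sufficient or low sulfate. Members were all probe sets annotated to exactly 1 gene whose symbol begins with UGT, without UGT74B1 and UGT74C1, and no level was required for membership. This gave 46 genes, each with 1 probe set, of 22810 probe sets on the array. The study compared 3 lines on 2 agar media. The parental line, P, is Columbia with a T-DNA in which SULTR1;2, a sulfate transporter gene, lends its promoter to GFP. The mutants slim1-1 and slim1-2 were isolated from P because GFP fluorescence responded less to sulfur limitation, so all 3 lines carry the reporter. SLIM1, also called EIL3, encodes an EIN3-like transcription factor known to act when sulfur is limiting. All plants were 10 days old, and the medium was S1500, with 1500 µM of added MgSO4, or S15, with 15 µM and 1485 µM of MgCl2, on washed agar that itself left about 10 µM of sulfate. Each of the 6 groups, P-S1500, P-S15, slim1-1-S1500, slim1-1-S15, slim1-2-S1500 and slim1-2-S15, had 2 arrays that the labels call biological replicates. Whole roots were measured, so a change in the number of cells of a type and a change in RNA per cell cannot be told apart.

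UGT enzymes move a sugar from a UDP-sugar, usually UDP-glucose, onto small molecules such as flavonoids, monolignols, plant hormones, sterols and foreign compounds. The sugar generally makes the acceptor more soluble and less active and allows its storage in the vacuole or its export. Glucosinolate synthesis uses the same kind of enzyme on a sulfur-containing acceptor, whereas the acceptors of most of the genes described here contain no sulfur.

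Levels are log2 signals after quantile normalization between arrays, and a level of 1 probe set cannot be set against that of another. Median deposited signals ran from 65.65 to 174.95 per array, with slim1-2-S15 replicate 2 the brightest. Across tested probe sets, which are not independent replicates, the correlation was 0.982 to 0.988 within groups and 0.964 to 0.987 between them. The root marker PYK10 was bright on every array, with deposited signals of 5607.8 to 8941.8. Of 11 listed shoot markers the annotation named 3, RCA, LHCB4.1 and LHCB4.2. Their summed deposited signal ran from 731.5 to 1511.3, so transcripts of green tissue were present in all 6 groups. Of 7 listed root hair markers the annotation named 2, EXPA7 and EXPA18. On low sulfate they rose in P by 0.76 and 0.78 on the log2 scale. They differed in response between the slim1 lines and P by -0.86 and -0.81, and all of these changes were called. The part of root hair and green tissue transcripts in the UGT results was not tested.

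Of the 46 UGT genes, 25 (54.3%) lay above the control level on all 12 arrays, 11 on some and 10 on none. Of the 22746 probe sets that are not controls, 69.0% lay above it on all 12 arrays, 4763 on some and 2294 on none. The control level of an array is the highest signal among its 27 probe sets for Bacillus subtilis genes. Only probe sets whose mean level over the 12 arrays exceeded the 40th percentile were tested, and 24 of the 46 genes (52.2%) passed, as did 13647 of the 22746 probe sets that are not controls. The 10 genes at or below the control level throughout were UGT71B6, UGT73C1, UGT73C2, UGT73C7, UGT76E1, UGT76E11, UGT76E12, UGT78D3, UGT84B1 and UGT84B2. For them the arrays gave only a bound. UGT74F1, which glucosylates salicylic acid, was above the control level on all 12 arrays but had a mean level of 5.01, under the filter level of 5.77.

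**Figure D1:**
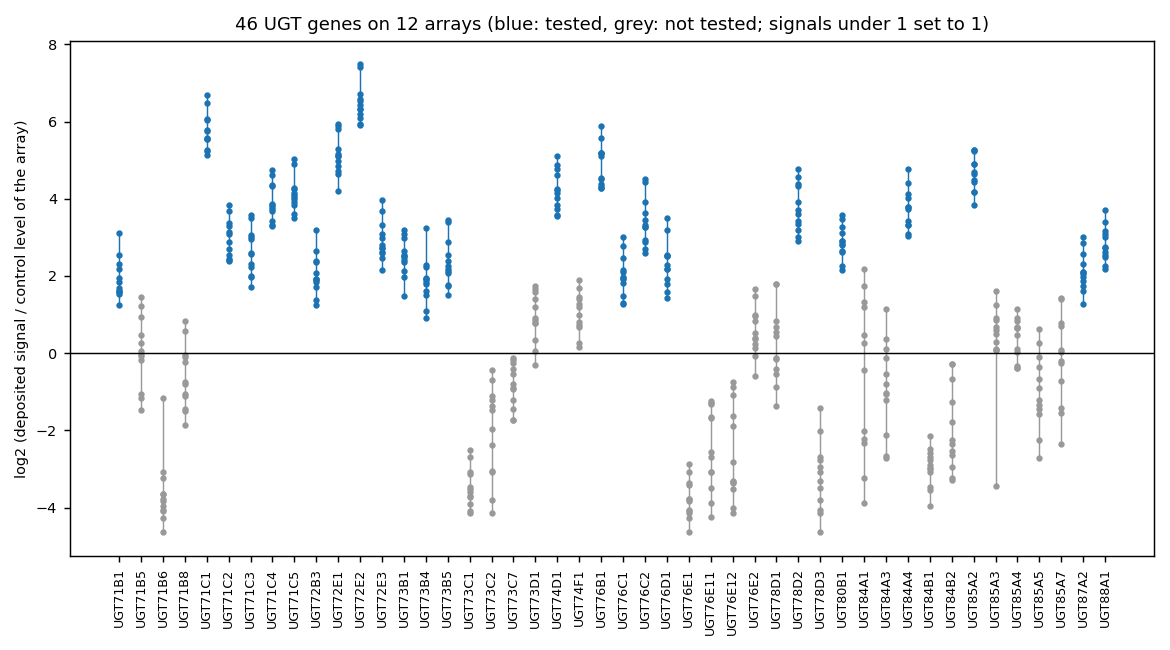
Deposited signal of each of the 46 UGT genes on each of the 12 arrays (points), as the log2 ratio to that array's control level (horizontal line at 0), with a vertical line from the lowest to the highest array. The 24 tested genes (blue) lie above 0 on all 12 arrays, and 10 of the 22 genes not tested (grey) lie at or below 0 on all 12.

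By known role, the genes that act on phenylpropanoids numbered 6. UGT72E1, UGT72E2 and UGT72E3, which glucosylate monolignols and their aldehydes, were tested together with UGT84A4 of the hydroxycinnamate ester group, while UGT84A1 and UGT84A3 did not pass the filter. Of the 3 flavonoid 3-O-glycosyltransferases, UGT78D2 was tested, and the rhamnosyltransferase UGT78D1 and the arabinosyltransferase UGT78D3 did not pass. Of 14 genes that act on hormones or related signals 7 were tested. These were UGT71C5 for abscisic acid, UGT74D1 for auxin, UGT76C1 and UGT76C2 for cytokinin, and UGT76B1, UGT76D1 and UGT71C3, which act on salicylate or related signals of immunity. Among 7 genes with the stem UGT73, which include enzymes linked to stress and detoxification, UGT73B1, UGT73B4 and UGT73B5 were tested. The sterol glucosyltransferase UGT80B1 was tested, as were 8 of 15 other genes.

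In the RefSeq gene order, 24 of the 46 genes lay directly beside another member, in 10 runs of adjacent genes. The longest run held 4 genes, UGT85A7, UGT85A2, UGT85A5 and UGT85A3, and of these UGT85A2 alone was tested. UGT71C5, UGT71C4 and UGT71C3 formed another run, all tested. Adjacent UGT genes are often close in sequence, and cross-hybridisation between them was not tested.

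In P on low sulfate, the monolignol glucosyltransferase gene UGT72E2 rose 1.31-fold and the flavonoid 3-O-glucosyltransferase gene UGT78D2 fell 1.58-fold, and these 2 of 24 were called, 1 higher and 1 lower. A probe set was called where its adjusted p from limma, with Benjamini-Hochberg adjustment over the 13647 tested probe sets, was under 0.05. Over all tested probe sets 3.84% were called in this comparison, 1.78% higher and 2.06% lower. In slim1-1 the 1 gene called was UGT72E2, which rose (background 2.2%, with 0.806% higher and 1.39% lower). In slim1-2 the 1 gene called was UGT73B5, which also rose (background 3.05%, with 1.06% higher and 1.99% lower). In none of the 3 lines did a tested member change by 1 or more on the log2 scale. Such changes were seen in 0.967% of all tested probe sets in P, 0.513% in slim1-1 and 0.696% in slim1-2.

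Most changes of the members in P were positive without passing the test. The 24 changes ran from -0.66 to 0.72 on the log2 scale with a median of 0.10, compared with a median of 0.00347 over all tested probe sets, and 18 of 24 (75.0%) were above 0, compared with 50.8% overall. The median absolute change was 0.23 for the members and 0.13 for all tested probe sets. At an unadjusted p under 0.05 from limma stood 6 of 24 members and 2071 of 13647 probe sets. Medians in slim1-1 and slim1-2 were 0.11 and 0.11. There 19 and 14 of 24 (79.2% and 58.3%) were above 0, compared with 50.3% and 52.4% of all tested probe sets. Changes in P, slim1-1 and slim1-2 rest on different arrays. UGT71C1, UGT72E2, UGT73B5, UGT76C1, UGT76C2, UGT76D1 and UGT80B1, which is 7 of 24, had a positive mean change in all 3 lines (background 20.5%), and UGT73B1 alone had a negative one in all 3 (background 18.5%). The arrays on S15 and S1500 did not overlap in P for 15 of 24 genes (background 48.6%). For the 22 genes not called in P, the data leave room for moderate changes, because the 95% intervals of the 24 changes reached 0.18 to 0.59 to either side.

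**Figure D2:**
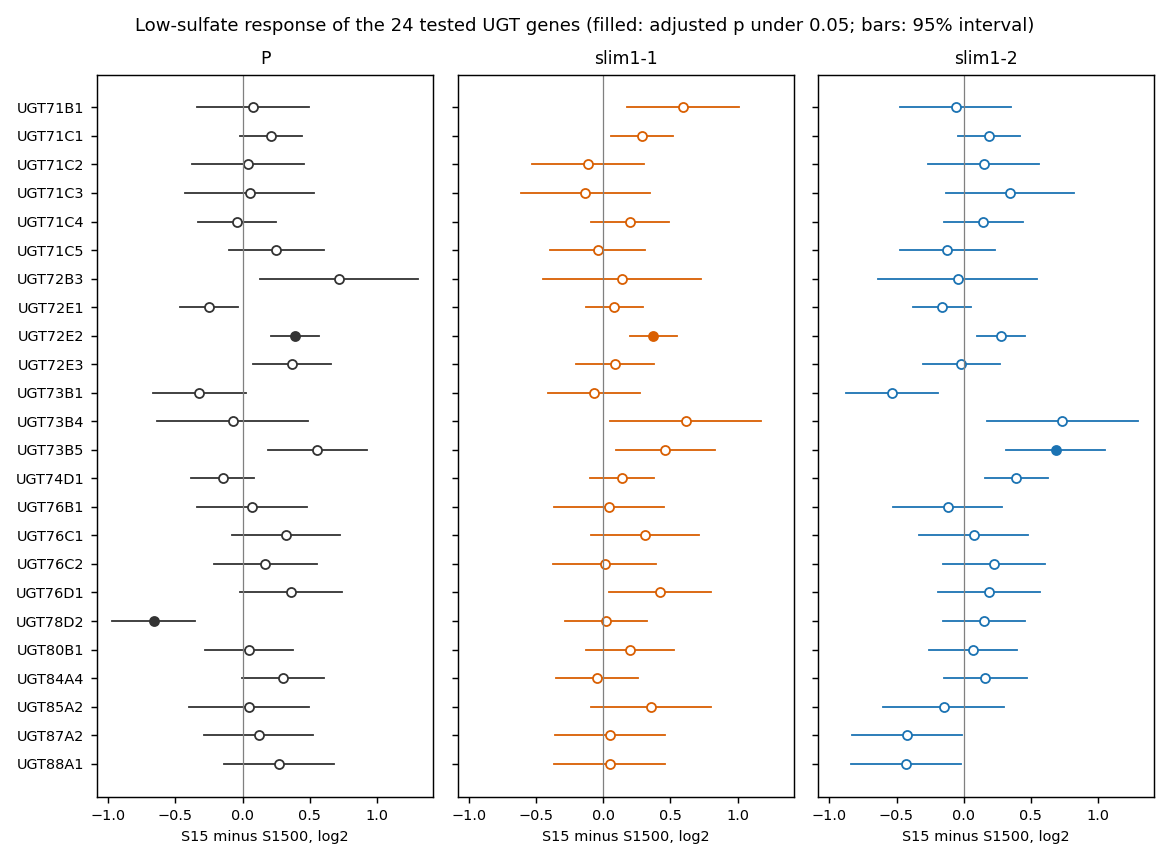
Change on low sulfate (S15 minus S1500, log2 scale) of the 24 tested UGT genes in P, slim1-1 and slim1-2, with the 95% interval of the limma fit as a bar. Filled points were called at an adjusted p under 0.05: UGT72E2 (0.39) and UGT78D2 (-0.66) in P, UGT72E2 (0.37) in slim1-1 and UGT73B5 (0.68) in slim1-2.

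UGT72E2, which glucosylates coniferyl and sinapyl alcohol, rose on low sulfate. Its levels in P were 10.25 and 10.22 on S1500 and 10.55 and 10.70 on S15. In slim1-1 they were 10.38 and 10.27 on S1500 and 10.67 and 10.74 on S15. In slim1-2 they were 10.36 and 10.21 on S1500 and 10.60 and 10.53 on S15. All 6 arrays on S15 lay above all 6 on S1500, so the media did not overlap in any line. The separation describes the same values as the test, and the share of all tested probe sets separated in this way was not counted. The change was 0.39 ± 0.0826 (SE; n = 2 for each group; limma adjusted p = 0.0149) in P, 0.37 ± 0.0826 (adjusted p = 0.0292) in slim1-1 and 0.28 ± 0.0826 (adjusted p = 0.101) in slim1-2. Averaged over the 3 lines, with 6 arrays on each medium, it was 0.35 ± 0.0477 (1.27-fold; adjusted p = 0.000254), a call kept whichever of the 12 arrays was left out. No difference in response between the slim1 lines and P was detected, with an estimate of -0.06 (95% interval -0.28 to 0.16, adjusted p = 0.918). In P the call was lost on leaving out either P-S1500 array (0.41 without replicate 1, 0.37 without replicate 2) or the second P-S15 array (0.31), and in slim1-1 without any single slim1-1 array (0.32 to 0.43). Without normalization between arrays the change averaged over the lines was 0.61 and not called (adjusted p = 0.0969), where all tested probe sets had a median change of 0.30.

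The other tested phenylpropanoid genes were not called in any comparison, where 0.183% to 8.87% of all tested probe sets were called. In P, UGT72E1 changed by -0.25 (95% interval -0.46 to -0.04), UGT72E3 by 0.37 (0.08 to 0.66) and UGT84A4 by 0.30 (-0.01 to 0.61), with adjusted p-values from limma of 0.237, 0.184 and 0.338. These intervals carry no adjustment for the number of genes tested. UGT72E1 thus had the opposite sign to UGT72E2 and UGT72E3 in P. Its levels ran from 8.91 to 9.33 over the 12 arrays.

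UGT73B5, a member of a group known to respond to pathogens and oxidative stress, rose on low sulfate in the average of the lines. Its levels in P were 6.04 and 6.08 on S1500 and 6.51 and 6.72 on S15. In slim1-1 they were 5.98 and 6.33 on S1500 and 6.65 and 6.58 on S15. In slim1-2 they were 5.97 and 5.82 on S1500 and 6.48 and 6.67 on S15. All 6 arrays on S15 again lay above all 6 on S1500, a separation whose share over all tested probe sets was not counted. The change averaged over the lines was 0.57 ± 0.0992 (SE; 1.48-fold; adjusted p = 0.00189 from limma), and it kept its call without any single array and without normalization between arrays, where it was 0.87. Line by line it was 0.56 ± 0.172 in P (adjusted p = 0.102), 0.46 ± 0.172 in slim1-1 (adjusted p = 0.286) and 0.68 ± 0.172 in slim1-2 (adjusted p = 0.0478). The slim1-2 call was lost when any of 10 of the 12 arrays was left out (0.59 to 0.78). The difference of response was 0.02 (95% interval -0.44 to 0.47).

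UGT73B4, the neighbour of UGT73B5 in the genome, was not called. Its change was -0.07 in P, 0.61 in slim1-1 and 0.73 in slim1-2, with a difference of response of 0.75 (95% interval 0.06 to 1.44, adjusted p = 0.481 from limma). UGT73B1, not called either, had changes of -0.32 in P, -0.07 in slim1-1, -0.54 in slim1-2 and -0.31 ± 0.0922 averaged over the lines (adjusted p = 0.0540). It had the lowest change in P among the genes not called there.

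UGT71C1, which glucosylates phenolic compounds in vitro, was the third gene called in the average of the lines. Its levels on S1500 had a lowest value of 9.36 (slim1-1-S1500 replicate 2) and reached 9.71. Those on S15 ran from 9.75 (slim1-1-S15 replicate 1) to 9.96 (slim1-2-S15 replicate 2). The media did not overlap, and here too the share of all tested probe sets separated in this way was not counted. The change was 0.23 ± 0.0619 (SE; 1.17-fold; adjusted p = 0.0335 from limma), and 0.21, 0.29 and 0.19 in P, slim1-1 and slim1-2, none called alone. The call was lost when any of 7 of the 12 arrays was left out (0.18 to 0.23), namely P-S1500 replicate 2, P-S15 replicate 2, slim1-1-S1500 replicate 2, slim1-1-S15 replicate 2, both slim1-2-S1500 arrays and slim1-2-S15 replicate 2. It was also lost under median centring (0.19, adjusted p = 0.0707), with signals as deposited (0.50, adjusted p = 0.304), with no filter (adjusted p = 0.0708) and with no intensity trend (adjusted p = 0.0879). In this average 3 of 24 members were called, all higher, where 8.87% of all tested probe sets were called, 4.31% higher and 4.57% lower.

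**Figure D3:**
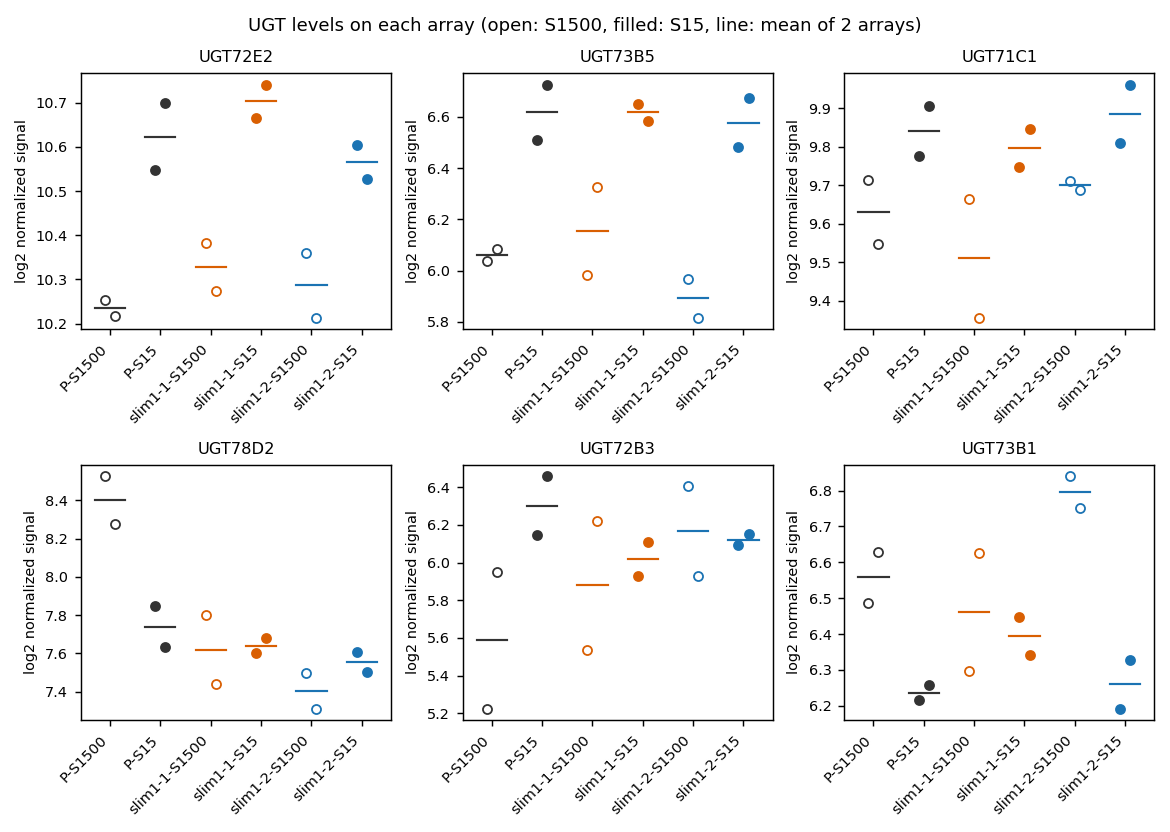
Levels (log2 normalized signal) of 6 UGT genes on each array, by line and medium, with a line at the mean of the 2 arrays of a group. UGT72E2, UGT73B5 and UGT71C1 lie higher on all S15 arrays than on all S1500 arrays, whereas UGT78D2 stands at 8.53 and 8.28 in P-S1500 and between 7.31 and 7.85 in the other 5 groups.

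UGT78D2, which attaches glucose to the 3-position of flavonols and anthocyanidins, was the 1 member called in a comparison between lines. Its levels in P were 8.53 and 8.28 on S1500 and 7.85 and 7.63 on S15. In slim1-1 they were 7.80 and 7.44 on S1500 and 7.60 and 7.68 on S15. In slim1-2 they were 7.50 and 7.31 on S1500 and 7.60 and 7.50 on S15. Both P-S1500 arrays lay above every other array, and the media overlapped in slim1-1 and lay side by side near 7.50 in slim1-2. The change in P was -0.66 ± 0.143 (SE; n = 2 for each group; limma adjusted p = 0.0164), and the changes in slim1-1 and slim1-2 were 0.02 and 0.15 (adjusted p = 0.981 and 0.715). The difference of response was 0.75 (95% interval 0.37 to 1.12) and did not pass (adjusted p = 0.0728), but it passed without slim1-1-S1500 replicate 1 (0.84, adjusted p = 0.0408). In that comparison 0 of 24 members were called (background 0.938%, with 0.286% higher and 0.652% lower), with 3 at an unadjusted p under 0.05, as were 1247 of 13647 probe sets.

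On sufficient sulfate UGT78D2 was lower in the slim1 lines than in P, by -0.89 ± 0.124 for both lines together (1.85-fold; adjusted p = 0.00248 from limma). It was the 1 member of 24 called there (background 1.08%, with 0.322% higher and 0.755% lower). Its slim1 and P arrays did not overlap there, as was the case for 3 of 24 members, the others being UGT72E1 and UGT76D1 (background 20.4%). Taken apart, in comparisons added after seeing the data, slim1-1 differed from P by -0.78 ± 0.143 (adjusted p = 0.0255) and slim1-2 by -0.999 ± 0.143 (adjusted p = 0.00241), the 1 member called in each (background 0.432% and 2.21%). On S15 the difference of both lines from P was -0.14 (95% interval -0.41 to 0.12, adjusted p = 0.669), and neither line alone had a called member on S15 (background 1.6% for slim1-1 and 1.55% for slim1-2). The comparison of P between media and that of the lines on S1500 share the P-S1500 arrays. Without P-S1500 replicate 1 both calls were lost, at -0.54 for the fall in P and -0.77 on S1500. The fall in P was also lost without P-S15 replicate 2 (-0.56). Each of these fits left 1 array in a group, and calls over all tested probe sets became fewer too. Without normalization between arrays UGT78D2 was called in neither comparison, at -0.41 in P and -0.67 on S1500.

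Other transcripts moved on the same arrays. CHIL, a chalcone isomerase-like gene that promotes flavonoid synthesis, was the single tested gene of 3 named here from a list of flavonoid synthesis. It was lower in both slim1 lines than in P on S1500 by -0.90 ± 0.131 (adjusted p = 0.00394 from limma), a call lost without P-S1500 replicate 1 (-0.86). Its levels were 9.67 and 9.60 in P-S1500, 9.46 and 9.25 in slim1-1-S1500 and 8.28 and 7.96 in slim1-2-S1500, so the difference was -1.52 in slim1-2 (adjusted p = 0.000117) and -0.27 in slim1-1 (adjusted p = 0.575). In P, CHIL changed on low sulfate by -0.55 ± 0.151 (adjusted p = 0.0629). RCA, the rubisco activase gene of green tissue, was lower in both slim1 lines than in P on S1500 by -0.59 ± 0.0886 (adjusted p = 0.00473), which was -0.94 in slim1-1 (adjusted p = 0.000356) and -0.24 in slim1-2 (adjusted p = 0.294). That call too was lost without P-S1500 replicate 1 (-0.46), a fit in which calls over all tested probe sets became fewer as well. With signals as deposited neither RCA (-0.37) nor CHIL (-0.68) was called. Of the 3 tested shoot markers RCA alone was called between the slim1 lines and P on S1500. Their summed deposited signal was 961 to 1374 in P-S1500, 736.3 to 960.6 in slim1-1-S1500 and 1070.3 to 1307.2 in slim1-2-S1500. In P on low sulfate RCA fell by 0.43, and the slim1 lines differed from P in RCA by -0.59 on S15 as on S1500. LHCB4.2 differed by -1.18 on S15 (called) and by -0.42 on S1500 (not called). LHCB4.1 differed by -0.19 on S15 and -0.11 on S1500, neither called. The part of these transcripts in the UGT78D2 result was not tested.

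**Figure D4:**
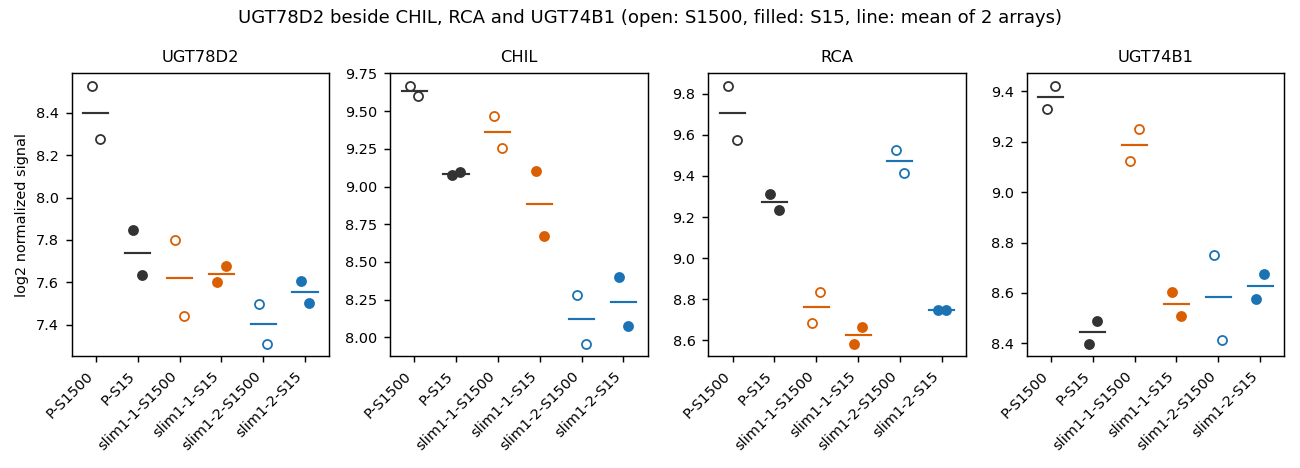
Levels (log2 normalized signal) of UGT78D2, the flavonoid gene CHIL, the shoot marker RCA and the glucosinolate gene UGT74B1 on each array, by line and medium, with a line at the mean of the 2 arrays of a group. On S1500, UGT78D2 is lower in both slim1 lines than in P, CHIL mainly in slim1-2 (8.28 and 7.96) and RCA mainly in slim1-1 (8.69 and 8.84).

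UGT74B1, the glucosyltransferase of the glucosinolate core and left out of the members, fell in P by 0.93 ± 0.114 (adjusted p = 0.000151 from limma) and differed in response by 0.64 (adjusted p = 0.0476). Its levels in slim1-1 were 9.12 and 9.25 on S1500 and 8.60 and 8.51 on S15, which did not overlap, and the change was -0.63 (adjusted p = 0.00807). In slim1-2 they were 8.75 and 8.41 on S1500 and 8.58 and 8.68 on S15, which overlapped, and the change was 0.04 (adjusted p = 0.922). On S1500 UGT74B1, like UGT78D2, was lower in both slim1 lines together than in P, by -0.49 ± 0.0985 (adjusted p = 0.0313), with -0.79 in slim1-2 (adjusted p = 0.00241) and -0.19 in slim1-1 (adjusted p = 0.613).

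None of the 7 tested hormone genes was called in any comparison, where 0.183% to 8.87% of all tested probe sets were called. In P they changed by -0.15 to 0.36, in slim1-1 by -0.13 to 0.42 and in slim1-2 by -0.12 to 0.39. UGT76D1, which glucosylates dihydroxybenzoic acids derived from salicylate, came closest with 0.32 ± 0.101 averaged over the lines (1.25-fold; adjusted p = 0.0646 from limma). UGT76C1 and UGT76C2, which add glucose to nitrogen atoms of cytokinins, changed in that average by 0.23 and 0.13 (adjusted p = 0.231 and 0.513). UGT76B1, which glucosylates isoleucic acid and salicylic acid, had levels from 8.52 to 9.30 and an averaged change of -0.00179 (95% interval -0.24 to 0.23).

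Among the remaining genes, UGT72B3 had the highest change in P of all members, 0.72 (95% interval 0.13 to 1.31), and was not called (adjusted p = 0.213 from limma). Its levels were 5.22 and 5.95 in P-S1500 and 6.15 and 6.46 in P-S15, and the 2 P-S1500 arrays lay further apart than the nearer of them lay from P-S15. Its changes in slim1-1 and slim1-2 were 0.14 and -0.05. UGT85A2 had levels from 8.05 (slim1-1-S1500 replicate 1) to 9.08 (slim1-2-S15 replicate 2), and slim1-1 differed from slim1-2 by -0.57 on S1500 (adjusted p = 0.280). The sterol gene UGT80B1 had the smallest range over the 12 arrays among the tested members, 0.39. Within groups the SD of the tested members, pooled over the 6 groups, had a median of 0.149, compared with 0.133 over all tested probe sets.

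Between slim1 lines and P on S15, 0 of 24 members were called (background 2.17%, with 0.74% higher and 1.43% lower), with 5 at an unadjusted p under 0.05 from limma, as were 1950 of 13647 probe sets. The arrays of the lines and of P did not overlap on S15 for 8 of 24 (background 23.8%). Between slim1-1 and slim1-2, 0 were called on S15 (background 0.183%, with 0.0586% higher and 0.125% lower) and 0 on S1500 (background 1.69%, with 0.52% higher and 1.17% lower), with 0 and 3 at an unadjusted p under 0.05, as were 822 and 1510 of 13647 probe sets.

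Pathway lists around these enzymes could be described only for the few genes that the annotation names. Of 2 tested genes of monolignol and sinapate synthesis, HCT and ALDH2C4, 0 were called in P, in the average of the lines or on S1500. Of 2 tested genes of hormone inactivation, WES1 and GH3.17, 0 were called in the same comparisons, nor was USP, the single tested gene of UDP-sugar supply. Of 3 tested glucoside hydrolase genes, BGLU46, whose enzyme releases monolignols from their glucosides, fell in the average of the lines (-0.21 ± 0.0611, adjusted p = 0.0468 from limma), and BGLU42 and BGLU45 changed by 0.05 and -0.16. CHIL also fell in that average (-0.30 ± 0.0871, adjusted p = 0.0462). Whether the BGLU46 and CHIL calls there depend on the processing or on single arrays was not tested. Of all tested probe sets 3.84% were called in P, 8.87% in the average and 1.08% between the slim1 lines and P on S1500.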

How the data were processed

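Each array's deposited file holds a linear intensity for every probe set, for which the submitters' processing notes name MAS5. Its version and scaling target are not given in these sources. Deposited signals spanned 0 to 12184.5, and precision is limited by the number of arrays. Groups and replicate numbers came from the sample titles. Signals under 1 were set to 1, log2-transformed and, because array medians ran from 6.04 to 7.45, quantile-normalized. After leaving out 64 controls, 13647 of 22746 probe sets passed the filter at the 40th percentile. All 12 arrays entered a limma 3.58.1 fit in R 4.3.3 with a mean for each group (eBayes with intensity trend, two-sided, 7.76 prior and 6 residual degrees of freedom), with Benjamini-Hochberg adjustment over all tested probe sets in each of 9 comparisons, and tested on simulated data. The labels call replicates biological without naming separate cultures. The p-values weigh a change against the spread between these arrays within groups, pooled over the 6 groups and moderated by that of other probe sets. The probe annotation gives 1 gene for 13513 of the 22810 probe sets and several genes for 503. A UGT gene on a probe set without a named gene could not become a member. All 46 members matched the RefSeq table of TAIR10.1, used for names and neighbours. UGT74C1 was not analysed here, because the annotation lists no probe set under that symbol. Members, lists and tests were chosen with earlier results of these data known. Named with values were members called in any comparison, UGT78D2, the 5 members with the highest mean level, the highest and lowest change in P not called, UGT74B1 and up to 4 called genes per pathway list; UGT73B4, UGT72E3, UGT84A4, UGT76C1, UGT76C2, UGT76D1, UGT80B1, UGT74F1, EXPA7, EXPA18, BGLU42 and BGLU45, and RCA and CHIL where P and slim1 were compared, were added after their values were seen. LHCB4.1 and LHCB4.2 were likewise added after their values were seen, where P and slim1 were compared. From the flavonoid list CHI was removed because that symbol is a chitinase gene. Lists for endodermis, stele, root cap and meristem had 0 genes named here.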

Additional observations from a re-analysis of the deposited data

Results flagged for a closer look

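In 5 of 24 tested genes (20.8%, compared with 12.1% of all tested probe sets) the arrays of a line moved wholly one way on S15 and those of another line wholly the opposite way, with 2 arrays per group. UGT74D1, an auxin-related member, changed by -0.15 in P, 0.14 in slim1-1 and 0.39 in slim1-2, so slim1-1 and slim1-2 stood 0.29 and 0.54 above P in response. The response of UGT78D2 stood 0.81 higher in slim1-2 than in P, though its nearest slim1-2 arrays on the 2 media lay side by side. In response, UGT87A2 stood -0.54 and UGT88A1 -0.70 from P in slim1-2, and UGT71B1 stood -0.65 from slim1-1 in slim1-2. These differences between single lines were not tested.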

How the results depend on the processing

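Alternatives were median centring, signals as deposited, no intensity trend, a filter at the 60th percentile or none, a replicate block, pseudocounts of 16 or 64, values raised to the control level, and leaving out each array in turn. With signals as deposited the count of called members was 0 in P (from 2), 0 in slim1-1 and 0 in slim1-2 (from 1 each), 1 in the average of the lines (from 3) and 0 for both slim1 lines against P on S1500 (from 1), while calls over all tested probe sets went from 524 to 65 in P and from 1211 to 172 in the average. There 24 of 24 members lay above 0 in the average (18 of 24 otherwise), but the member median stood 0.12 above that of all probe sets, compared with 0.11. UGT78D2 turned sign, uncalled, to 0.13 in that average and to 0.14 against P on S15. Median centring gave 1 called member in P and 0 in each slim1 line, and no intensity trend gave 1 in P and 0 in slim1-1. No filter gave 0 in each slim1 line, and a pseudocount of 64 gave 0 in slim1-2. The filter at the 60th percentile also gave 0 in slim1-2, because UGT73B5 did not pass that filter and was not tested. The replicate block gave 0 in slim1-2 and 1 for the difference of response, UGT78D2 (0.75, adjusted p = 0.0325 from limma). It changed no other count of called members. Deviations of same-numbered arrays correlated at -0.12 to 0.23 between groups, with 4 of 15 over 0.1. Whether arrays with the same number were grown or handled together cannot be told from the labels. Leaving out 1 array gave 0 to 2 called in P, 0 to 1 in slim1-1 and in slim1-2, 2 to 4 in the average, 0 to 1 for the difference of response and 0 to 1 on S1500; counts for the slim1 lines against P on S15 and between the slim1 lines were 0 in every setting. Of 30 named changes under all settings, none turned sign while called. UGT73B1 (-0.31) and UGT76D1 (0.32) were called in the average without the intensity trend (adjusted p = 0.0245 and 0.0339). The causes of these changes were not tested. Low signals limit the 22 genes under the filter.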

Other observations

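Among probe sets with a named gene, a further 8 belong to UGT genes but fall outside the membership rule. For 3 of them the annotation gives several genes, and for 5 the gene carries another symbol. Of the 6 that were tested, 2 were called in P, where 3.84% of all tested probe sets were called, and the same 2 in the average of the lines, where 8.87% were. GT72B1, listed in RefSeq as UGT72B1 and known to conjugate foreign compounds and monolignols, rose by 0.38 ± 0.0809 in P (SE; n = 2 for each group; limma adjusted p = 0.0139), 0.33 in slim1-1 (adjusted p = 0.0498) and 0.34 in slim1-2 (adjusted p = 0.0379), and by 0.35 averaged over the lines (adjusted p = 0.000183). The probe set shared by UGT73B2 and UGT73B3, listed as UGT73B2;UGT73B3, rose by 0.47 ± 0.0915 in P (adjusted p = 0.00780) and by 0.29 averaged over the lines (adjusted p = 0.00284), with 0.33 in slim1-1 (adjusted p = 0.0938) and 0.06 in slim1-2 (adjusted p = 0.854). IAGLU, which glucosylates indole-3-acetic acid, and the sterol gene SGT changed in P by 0.12 and 0.29 (adjusted p = 0.841 and 0.403). Of all tested probe sets 2.2% were called in slim1-1 and 3.05% in slim1-2. Whether the calls of GT72B1 and of the probe set shared by UGT73B2 and UGT73B3 depend on the processing or on single arrays was not tested.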
